A study of Mus musculus with 6 samples.

Results

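The ribosomal protein genes of mouse lung endothelial cells were followed in libraries labelled KO or WT for Dnmt3a, a gene for one of the enzymes that set new DNA methylation. Members were taken by their symbols, which had to begin with Rpl or Rps and go on with p and a digit or with the protein's number, then at most a letter a, x or l and further digits. The kinase genes whose symbols begin with Rps6k and pseudogene symbols with -ps were left out. The rule found 84 of the 24520 genes in the deposited tables. Of these, 76 were core genes, 46 for the large and 30 for the small subunit of the cytosolic ribosome. The other 8 were paralogues, genes with a letter l after the protein's number: Rps4l, Rpl3l, Rpl7l1, Rpl10l, Rpl22l1, Rpl32l, Rpl39l and Rps27l.

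The libraries labelled KO and those labelled WT, 3 under each label, held RNA of endothelial cells, the lining cells of blood vessels, obtained from mouse lung by fluorescence-activated sorting. The labels give a genotype of knockout or wild type and nothing else that separates the groups. The sources used here give no allele, Cre driver, strain, age of the mice or gate of the sort. They do not say whether each library came from an animal of its own, so the p-values cover a spread that may be partly technical. RNA was amplified with a kit for very small inputs, and strand is not stated to have been kept, so that a gene and an antisense partner cannot be told apart.

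Estimated counts summed to 28136194 to 31402838 in the libraries labelled KO and to 29482747 to 39999172 in those labelled WT. Dnmt3a ran against its label: it had 5090, 4878 and 4750 estimated counts in the libraries labelled KO, against 1235, 1079 and 1198 in those labelled WT (log2 fold change 2.22 with an SE of 0.11, edgeR adjusted p = 0.00157). Whether the labels were exchanged was not tested, and if they were, every direction given here would turn round. A total over the gene also need not fall where only some exons are deleted, and exons were not analysed here. Groups are therefore called by their labels, and higher or lower refers to the label KO against the label WT. The 10 endothelial markers were present throughout, with a summed level of 14130 to 16750 CPM in the libraries labelled KO and 14100 to 18120 CPM in those labelled WT. Markers of other cells were present too, none of them at 0 in all libraries. The 7 markers of alveolar type 2 cells, the surfactant-making epithelial cells, summed to 758.6 to 3554 CPM in the libraries labelled KO and 327.3 to 9201 CPM in those labelled WT. Y-linked genes were nearly silent in replicate 1 under each label and active in replicates 2 and 3.

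A ribosome is built from ribosomal RNA and one copy of nearly every ribosomal protein, and cells keep the messengers of these proteins abundant and in step with one another. Many of these messengers begin with a tract of pyrimidines through which the mTOR pathway and the RNA-binding protein LARP1 set their translation. The genes have also left a large number of processed pseudogenes, copies made from spliced messengers and inserted elsewhere in the genome. A few members have expressed paralogues, some of them restricted to single tissues such as testis or muscle.

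Rps4l had the largest fold change of the 81 members that were high enough to be tested. It is a relative of Rps4x, the X-linked gene for protein S4 of the small subunit. Rps4l (ENSMUSG00000063171) lies at chr6:148354656-148355598 on the plus strand of mm10 as a single exon, and GENCODE M21 annotates it as a transcribed processed pseudogene. Rps4x (ENSMUSG00000031320) lies at chrX:102184941-102189394 on the minus strand. Of the 792 coding bases of Rps4x, stop codon included, Rps4l had the same base at 632 and another base at 157, while 3 were missing from it and none was inserted, an identity of 79.8%. The stretch of 60 bases with the most differences is printed to show how far apart the copies are for a read that has to be assigned to one of them. It covers coding bases 456 to 515 of Rps4x, at chr6:148355165-148355224 on the plus strand for Rps4l and chrX:102186413-102186472 on the minus strand for Rps4x, and capitals mark the 19 positions that differ.
Rps4l: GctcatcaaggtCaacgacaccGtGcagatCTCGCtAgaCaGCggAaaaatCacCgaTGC
Rps4x: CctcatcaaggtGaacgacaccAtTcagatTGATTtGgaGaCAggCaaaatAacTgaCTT
The longest run of identical bases between the copies was 35. Of the 31-base words of the Rps4l transcript, 0.876% occurred in a transcript of any other gene in the tables and 8 words occurred in Rps4x. Far more of them occurred in another gene of GENCODE M21 when genes outside the tables were counted too. That share lay above the 25.9% of Rpl36a and below the 26.6% of Rpl15 on the same measure. Whether reads from genes outside the tables were assigned to Rps4l was not tested.

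Rps4l was lower in every library labelled KO than in any labelled WT. Per length and depth, it stood at 246.6, 181.0 and 211.8 TPM in KO replicates 1, 2 and 3, against 376.0, 433.4 and 412.3 TPM in WT replicates 1, 2 and 3. The groups did not overlap, and the highest library labelled KO was well under the lowest labelled WT. The counts behind these values were 2991, 2365 and 2716 in the libraries labelled KO and 5393, 5540 and 7357 in those labelled WT. Scaled by depth, Rps4l averaged 90.4 ± 11.6 CPM in the libraries labelled KO and 182 ± 16.2 CPM in those labelled WT (SD, n = 3 each), which is -1.01 as a log2 fold change with an SE of 0.13.

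Whether Rps4l was called depended on the tool. By edgeR's quasi-likelihood test its unadjusted p was 0.000101, the rank 10 among 14667 genes tested, and the p adjusted over all of them was 0.136. By DESeq2 the log2 fold change was -1.02 with an adjusted p of 2.98e-08. Over all settings tried the adjusted p ran from 2.98e-08 to 0.482, and the log2 fold change stayed between -1.11 and -0.92 when any 1 library was left out. Replicate 1, the library with little Y-linked RNA, had 101 CPM labelled KO against 164 CPM labelled WT. The other replicates had 78.05 and 91.9 CPM labelled KO against 187.5 and 195 CPM labelled WT, so the difference had the same sign in either kind of library. In bulk RNA, fewer cells that express a gene and less RNA per cell cannot be told apart.

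Rps4x did not follow. It stood at 1068, 944.4 and 1133 TPM in KO replicates 1, 2 and 3 and at 1098, 958.3 and 908.1 TPM in WT replicates 1, 2 and 3, so that the groups overlapped. On the log2 scale it differed by 0.01 (SE 0.12, edgeR adjusted p = 0.981). The count of Rps4l per count of Rps4x was 0.236, 0.195 and 0.191 in the libraries labelled KO and 0.349, 0.46 and 0.462 in those labelled WT. This ratio averaged 0.207 ± 0.0246 in the libraries labelled KO and 0.423 ± 0.0645 in those labelled WT (SD, n = 3 each), a log2 difference of -1.02. Its exact two-sided permutation p was 0.1, the smallest that 20 splits of 3 against 3 can give. Rps4l therefore made up 19.1%, 16.4% and 16.0% of the counts of the pair in the libraries labelled KO, against 25.9%, 31.5% and 31.6% in those labelled WT.

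**Figure D1:**
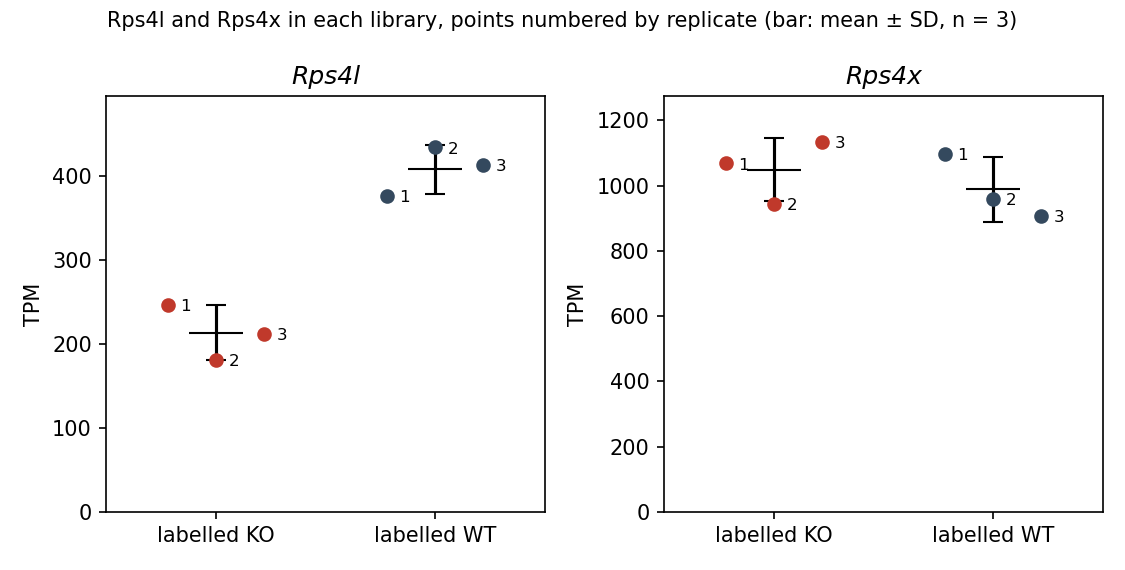
Level of Rps4l (left) and Rps4x (right) in TPM for each library, with the groups labelled KO and WT side by side, points numbered by replicate and black bars for the mean and SD of 3 libraries. The Rps4l points of the libraries labelled KO lie between 181.0 and 246.6 TPM and those of the libraries labelled WT between 376.0 and 433.4 TPM, while the Rps4x points overlap.

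The surroundings of Rps4l were examined next. It lies inside an intron of Tmtc1, a gene for a transmembrane O-mannosyltransferase that spans chr6:148232430-148444389 on the opposite strand, and no exon of Tmtc1 comes nearer than 18323 bases. Tmtc1 had 1441, 3543 and 1324 counts in the libraries labelled KO and 1197, 1002 and 1851 in those labelled WT. The groups overlapped, KO replicate 2 was high, and the log2 fold change was 0.82 (SE 0.37, edgeR adjusted p = 0.411), opposite in sign to that of Rps4l. Of 9 annotated genes within 250 kb of Rps4l, 3 were rows of the tables. The other two were Far2, a fatty acyl-CoA reductase gene (log2 fold change 0.05, SE 0.37), and Ergic2, a gene for a protein of the early secretory pathway (log2 fold change -0.15, SE 0.13). Neither passed the test.

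Among the other paralogues, Rpl7l1 was the only one tested whose groups did not overlap. Its product is a relative of ribosomal protein L7 that takes part in making the large subunit. It had 165, 161 and 158 CPM in KO replicates 1, 2 and 3, against 181, 187 and 218 CPM in WT replicates 1, 2 and 3. All libraries labelled KO were below all libraries labelled WT, by a small margin. The log2 fold change was -0.28 (SE 0.11, unadjusted p = 0.0409, edgeR adjusted p = 0.376), so Rpl7l1 did not pass.

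Rps27l and Rpl22l1 overlapped between the labels. Rps27l, a p53 target gene that encodes a relative of S27, averaged 56.0 ± 5.42 CPM in the libraries labelled KO and 58.9 ± 7.48 CPM in those labelled WT (SD, n = 3 each; log2 fold change -0.07, SE 0.14). Rpl22l1, the partner gene of Rpl22, averaged 11.6 ± 2.23 CPM in the libraries labelled KO and 10.7 ± 1.98 CPM in those labelled WT (SD, n = 3 each; log2 fold change 0.11, SE 0.23). Its own spread was wide, with the highest value in KO replicate 2. Rpl22 itself, which encodes an RNA-binding protein of the large subunit, had a value of 0.05 on the same scale (SE 0.12).

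The last paralogues were near the limit of detection. Rpl32l had 14, 15 and 16 counts in the libraries labelled KO and 27, 14 and 12 in those labelled WT, and it shares 35.8% of its 31-base words with other genes in the tables, so its counts are uncertain. Rpl39l, a relative of Rpl39 known for its expression in testis, had 0, 0 and 2 counts in the libraries labelled KO against 25, 6 and 11 in those labelled WT. The groups did not overlap, with a sum of 2 counts against 42, a ratio of depth-scaled counts of 0.0544 (95% exact interval 0.00638 to 0.209, counting error only). Rpl39l was too low for the test over all genes. With no filter on low counts, its edgeR adjusted p was 0.379. Rpl10l, known from testis, had 0, 0 and 2 counts in the libraries labelled KO and 1, 1 and 1 in those labelled WT. Rpl3l, known from heart and skeletal muscle, had 0, 0 and 0 counts in the libraries labelled KO and 0, 2 and 0 in those labelled WT. Both were at or under a floor of 3 counts per library, and no fold is given for them.

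**Figure D2:**
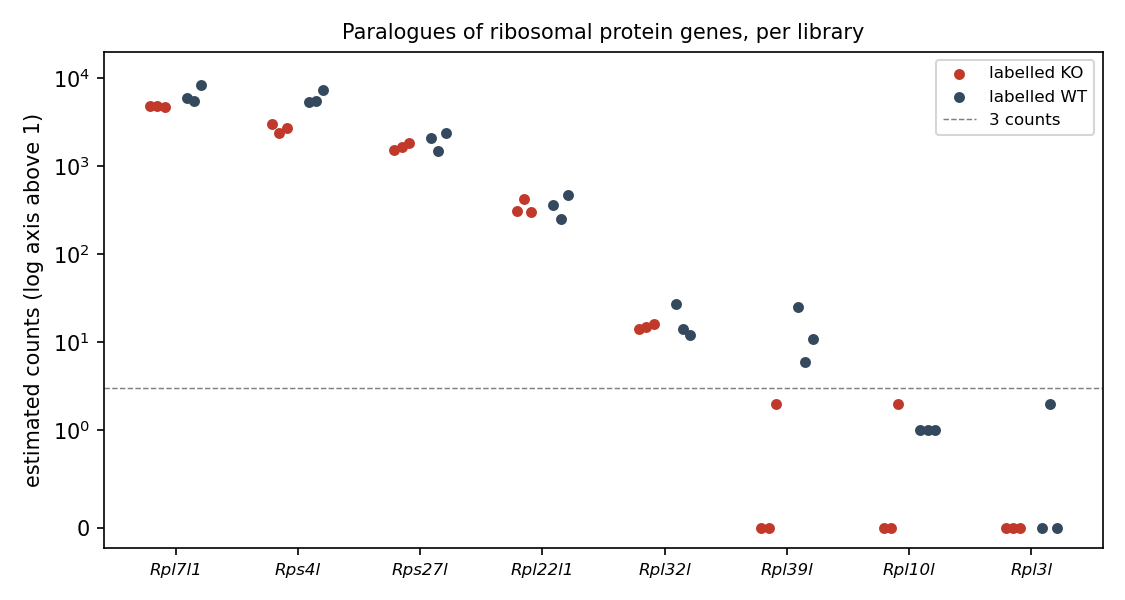
Estimated counts of the 8 paralogues in each library, on an axis that is logarithmic above 1, with the libraries labelled KO to the left of those labelled WT for every gene and a dashed line at 3 counts. Rps4l, Rpl7l1 and Rpl39l show separate groups, and Rpl10l and Rpl3l lie under the line throughout.

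The core set did not pass the test at any gene. All 76 core genes and 5 paralogues were high enough to be tested, 81 of the 84 members. edgeR called 0 of the 81 at an adjusted p under 0.05, where it called 5 of all 14667 genes, or 0.0341%. DESeq2 called 1 of the 81, which was Rps4l, and 2.65% of all genes. An unadjusted edgeR p under 0.05 was found for 2 members, Rps4l and Rpl7l1, against 12.6% of all genes, and a DESeq2 p under 0.05 for 4 members, against 14.3% of all genes. The groups did not overlap, with the libraries labelled KO lower, for 3 tested members (Rps4l, Rpl7l1 and Rpl3), against 9.42% of all genes. No tested member had the libraries labelled KO higher without overlap, against 10.9% of all genes. Taking both directions, that is 3 of 81 members, against 20.3% of all genes.

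Core fold changes were small. The log2 fold change lay within 0.2 of 0 for 73 of the 76 core genes and for 42.2% of all genes tested. The median SE was 0.13 for the core genes, against 0.22 over all genes tested. Core values ran from -0.24 to 0.49 with a median of -0.04, against a median of 0.01 over all genes. The sign was negative for 53 core genes and positive for 23, and 49.1% of all genes were negative. Among the 46 large-subunit genes 14 were positive and 32 negative, and among the 30 small-subunit genes 9 were positive and 21 negative, each with a median of -0.04. These signs did not hold across settings. Without KO replicate 2, 51 of the 81 members were positive, without WT replicate 1, 45 were, and without KO replicate 3, 3 were. On the log2(TPM + 1) scale 57 were positive, and with limma-voom and quality weights 33.

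**Figure D3:**
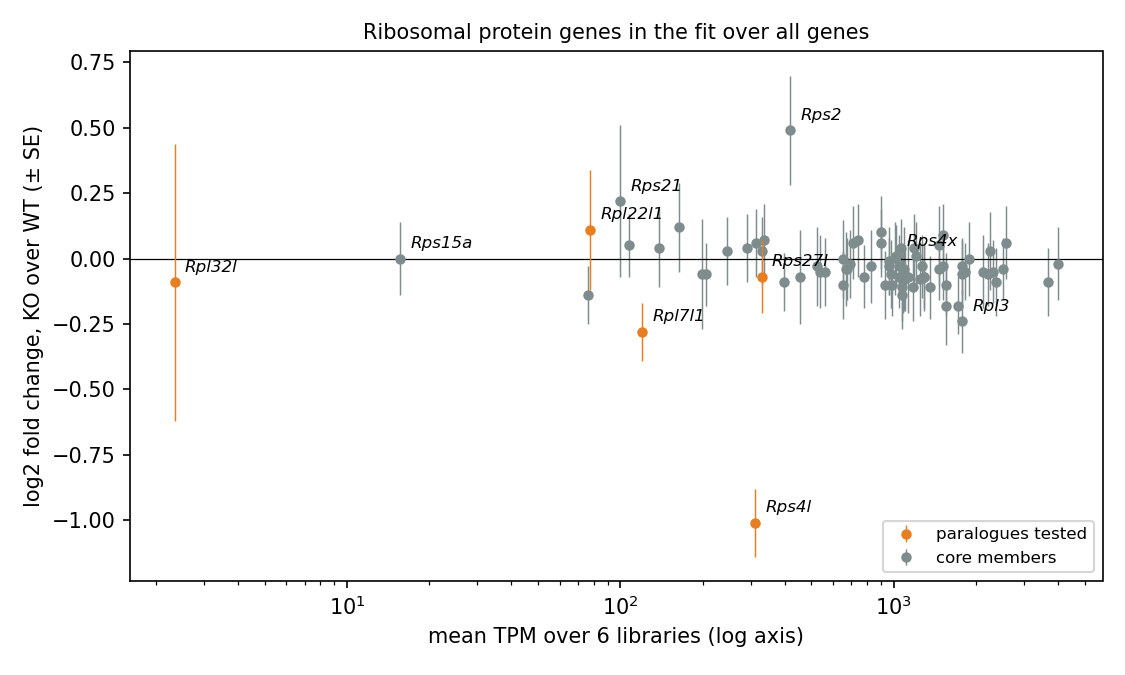
Log2 fold change of KO over WT with its SE for the 81 members tested, against their mean TPM over 6 libraries on a log axis, with core genes in grey and paralogues in orange. Core genes lie between -0.24 and 0.49, and Rps4l is at -1.01.

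Rps2 and Rpl3 were the core genes at the ends of that range. Rps2, which encodes a protein near the entry channel for messenger RNA, had 278, 181 and 225 CPM in KO replicates 1, 2 and 3, against 184, 180 and 123 CPM in WT replicates 1, 2 and 3. The groups overlapped, since KO replicate 2 was below WT replicate 1. Its log2 fold change was 0.49 (SE 0.21, edgeR adjusted p = 0.399, and 0.268 to 0.736 over the settings), and 18.4% of its 31-base words occur in another gene of the tables. Rpl3, a protein that reaches towards the peptidyl transferase centre, had 1198, 1020 and 1252 CPM in KO replicates 1, 2 and 3, against 1311, 1346 and 1438 CPM in WT replicates 1, 2 and 3. The groups did not overlap, and the log2 fold change was -0.24 (SE 0.12, edgeR adjusted p = 0.453).

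The remaining core genes with the lowest p in either direction overlapped between the labels. Rplp0, the scaffold of the ribosomal stalk that binds elongation factors, averaged 1131 ± 81.7 CPM in the libraries labelled KO and 1282 ± 59.0 CPM in those labelled WT (SD, n = 3 each; log2 fold change -0.18, SE 0.11, edgeR adjusted p = 0.528). Rps19, the gene most often mutated in Diamond-Blackfan anaemia in humans, had a log2 fold change of -0.18 with an SE of 0.15. Rpl15 and Rpl38 had -0.14, and Rpl6 and Rpl29 had -0.11. In the other direction Rps21 had 0.22 (SE 0.29), with 9.26, 7.06 and 12.4 CPM labelled KO and 10.5, 6.53 and 7.71 CPM labelled WT. Rps24 had a log2 fold change of 0.12, Rps12 0.10, Rpl9 0.09, Rpl23 and Rps15 0.07, and Rpl35a and Rpl30 0.06.

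What the core genes shared was a shift from library to library. For each core gene the log2 CPM of a library was taken minus the gene's own mean over the 6 libraries. The median of these differences was -0.03, -0.17 and 0.15 in KO replicates 1, 2 and 3 and 0.13, -0.05 and -0.04 in WT replicates 1, 2 and 3. KO replicate 3 and WT replicate 1 were thus the high libraries and KO replicate 2 the low one, so the shift did not go with the label. The number of core genes above their own mean was 24, 2 and 74 of 76 in KO replicates 1, 2 and 3 and 75, 12 and 29 of 76 in WT replicates 1, 2 and 3. Once the library's median was taken off, the spread of a core gene fell to a median SD of 0.0687, against 0.138 before. That median came from these same core genes, so the fall is partly built in, and no other set was used to compare it. The residual SD was under 0.1 for 62 of 76 core genes. It was lowest for Rps3a1, a gene for a protein of the small subunit, at 0.019 and highest for Rps2 at 0.383. Rps4x had 0.03. Rps4l, which does not enter the core median, had 0.568. Its residuals were -0.31, -0.54 and -0.62 in the libraries labelled KO and 0.23, 0.61 and 0.65 in those labelled WT.

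**Figure D4:**
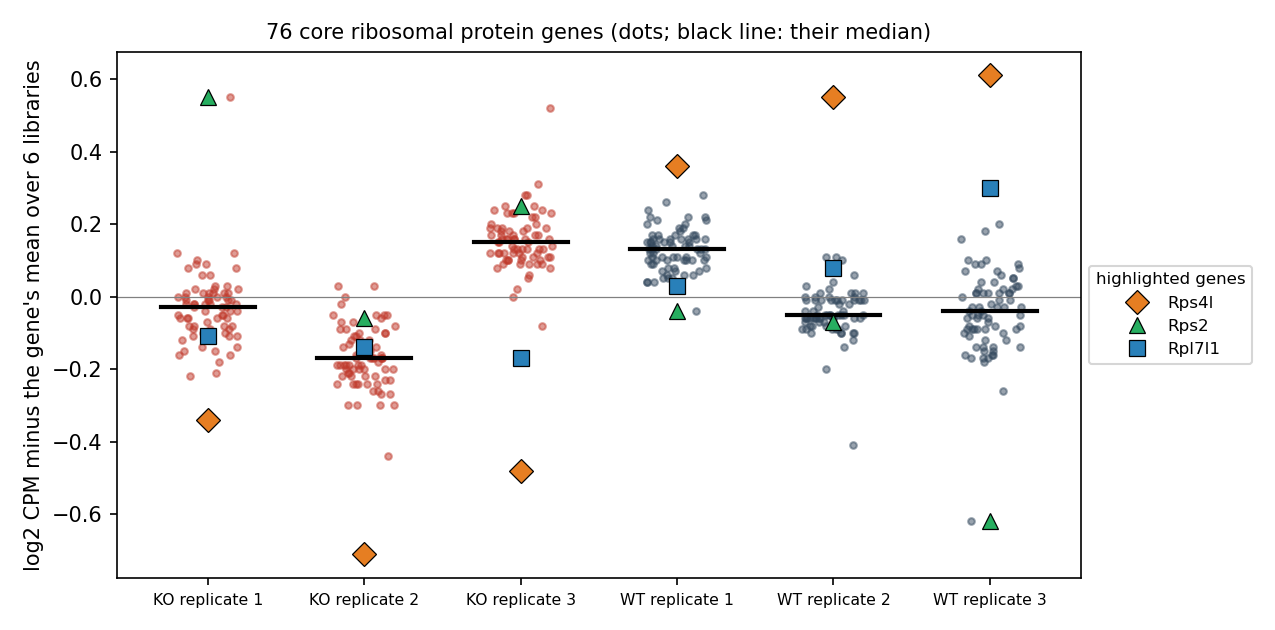
Log2 CPM of each of the 76 core genes minus its own mean over 6 libraries, by library, with the libraries labelled KO on the left, a black line for the median of the core genes and larger symbols for Rps4l, Rps2 (also one of the dots) and Rpl7l1. The dots move together between libraries, with medians from -0.17 in KO replicate 2 to 0.15 in KO replicate 3, and Rps4l lies below the dots' median in every library labelled KO and above it in every library labelled WT.

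The summed share of the members showed the same pattern. They took 2.67%, 2.23% and 2.87% of the estimated counts in KO replicates 1, 2 and 3 and 2.92%, 2.57% and 2.43% in WT replicates 1, 2 and 3. The means were 2.59% ± 0.33 in the libraries labelled KO and 2.64% ± 0.252 in those labelled WT (SD, n = 3 each), a difference smaller than either SD. Of the nominal TPM total they took 8.68% ± 0.88 in the libraries labelled KO and 8.52% ± 0.812 in those labelled WT. That nominal total is the fixed sum to which TPM values are scaled. The deposited columns summed to less, so shares of the deposited TPM would be higher and were not computed. The paralogues took 0.0345%, 0.0297% and 0.0326% of the counts in the libraries labelled KO, against 0.0434%, 0.0435% and 0.0462% in those labelled WT. Rps4l alone took 0.0106%, 0.00753% and 0.00929% in the libraries labelled KO, against 0.0169%, 0.0188% and 0.0184% in those labelled WT.

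Levels of the members differed widely when given per length. By mean TPM over the 6 libraries, Rpl41 was highest at 4003 TPM, followed by Rps14 at 3666, Rpl13 at 2584, Rpl32 at 2509, Rps9 at 2370, Rps18 at 2309 and Rpl35 at 2261. Rpl41 stood at 500 ± 78.8 CPM in the libraries labelled KO and 508 ± 36.6 CPM in those labelled WT, and Rps14 at 779 ± 89.6 CPM in the libraries labelled KO and 828 ± 62.2 CPM in those labelled WT (SD, n = 3 each). None of these genes passed the test, with log2 fold changes from -0.09 for Rps14 and Rps9 to 0.06 for Rpl13. The median core gene had 1046 TPM. Rps4l ranked 70 of the 84 members in the libraries labelled KO and 62 in those labelled WT.

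The lowest core genes were Rps15a at 15.7 TPM, Rpl15 at 75.9, Rps21 at 99.6, Rpl22 at 108 and Rps20 at 139. These places depend on the length by which the authors' counting divided. Per TPM, Rps15a had 10.1 times the counts of the median core gene, Rps20 6.61 times, Rpl22 4.04 times and Rpl15 3.32 times. Rps21 had 0.294 times, so it was also low in counts. The transcripts to which reads were assigned are not stated, and levels between genes are therefore less certain than differences between libraries.

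Sequence shared with other genes of the tables limits some members more than Rps4l. Of the 84 members, 20 had over 10% of their 31-base words in common with another gene of the tables and 32 under 1%. Rpl35 shared 64.0%, mostly with Wdr38, Rpl23a 53.3%, mostly with Tlcd1, and Rps23 38.6%, mostly with the copy Gm5148. Rpl14 shared 30.7%, mostly with Rpl14-ps1, and Rps27 27.4%, mostly with Rps27rt. Over all genes tested, 20.3% did not overlap between the labels. Of 9 copies read from the tables, 8 overlapped. Among them, Gm5148 had a log2 fold change of 0.01 (SE 0.13), Rpl37rt of -0.03 (SE 0.12), Rpl14-ps1 of 0.15 (SE 0.18) and Rpl31-ps12 of 0.18 (SE 0.13). The exception was Gm10653, the gene that shares most 31-base words with Rps2, with 12, 5 and 23 counts in the libraries labelled KO, against 26, 35 and 34 in those labelled WT. It did not pass (log2 fold change -1.09 with an SE of 0.63, edgeR adjusted p = 0.495).

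The members are spread over 19 chromosomes, with 14 on chromosome 7 and 4 on chromosome X (Rps4x, Rpl10, Rpl36a and Rpl39). RefSeq windows of 300 bases on GRCm38.p6, from 250 before to 50 after an annotated start, matched 56 core genes with 66 windows. A run of at least 5 pyrimidines overlapping the stretch from 5 bases before to 6 bases from the start was found in 34 of the 66 core windows (51.5%), against 32.9% of all 32851 windows. The ETS-type motif CCGGAAG, searched on both strands, was found in 24 core windows (36.4%), against 8.86% of all windows. The core windows held a median of 21 CG pairs, against 7 in all windows. Rps4l had no window, and the 9 windows of the 7 other paralogues held a median of 16. These are matches of letters and were not compared between the labels.

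Genes that serve the ribosome were read from the same fit. The 6 cytosolic ribosomal proteins that the symbol rule does not take (Rpsa and Rack1 among them) had 1 positive and 5 negative log2 fold changes with a median of -0.04, and none passed. Of 8 genes in the list of elongation factors, 2 were positive and 6 negative and none passed. Eef1a1, which brings aminoacyl-tRNA to the ribosome, had -0.02 (SE 0.13). Tpt1, a translationally controlled pyrimidine-tract messenger, averaged 650 ± 72.7 CPM in the libraries labelled KO and 521 ± 57.9 CPM in those labelled WT without overlap (SD, n = 3 each; log2 fold change 0.32, SE 0.14, edgeR adjusted p = 0.401). The value of Tpt1 was the highest of the elongation factor list. Of the 8 genes of that list, 1 was higher and 0 were lower without overlap, against 10.9% and 9.42% of all genes. Of 38 genes tested from the list of initiation factors, 16 were positive and 22 negative. edgeR called 0 and DESeq2 called 1, against 0.0341% and 2.65% of all genes. The gene called by DESeq2 was Eif3j1, for a loosely bound subunit of eIF3, at 36.0 CPM labelled KO and 23.7 CPM labelled WT (log2 fold change 0.60, SE 0.13, edgeR adjusted p = 0.24, DESeq2 adjusted p = 0.0136).

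Larp1, whose product binds pyrimidine-tract messengers, averaged 5.03 ± 1.08 CPM in the libraries labelled KO and 2.32 ± 0.314 CPM in those labelled WT (SD, n = 3 each). The groups did not overlap, and the gene did not pass (log2 fold change 1.12, SE 0.31, edgeR adjusted p = 0.293, DESeq2 adjusted p = 0.0692). Its value was the highest of the initiation factor list, in which Larp1 was counted. Of the 38 tested genes of that list, 5 were higher and 6 lower without overlap, against 10.9% and 9.42% of all genes. Of 19 genes of mTOR complexes and their regulators 12 were positive and 7 negative, with a median of 0.22 and no call. Rheb, the GTPase that activates mTOR complex 1, had 0.37 (SE 0.15, edgeR adjusted p = 0.373) without overlap between the groups. Of the 19 mTOR genes, 3 were higher and 1 lower without overlap, against the same shares of all genes. Of 7 S6 kinase genes 2 were positive and 5 negative, with no call. Their values ran from -2.25 to 0.26, and 1 was lower in the libraries labelled KO without overlap, against 9.42% of all genes. Rps6kb1, the main kinase of ribosomal protein S6, had -0.02 (SE 0.10).

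No gene that serves the making of ribosomes passed the test. Of 46 ribosome biogenesis genes 20 were positive and 26 negative, and of 11 RNA polymerase I genes 5 were positive and 6 negative, with 0 calls by edgeR and by DESeq2. Npm1, the nucleolar chaperone, had -0.15 on the log2 scale (SE 0.15). Mitochondrial ribosomal proteins, which build a separate ribosome for mitochondrial messengers, had 22 positive and 56 negative values of 78 with a median of -0.07 and no call. Of these 78 genes, 3 were higher and 8 lower without overlap, against 10.9% and 9.42% of all genes. Mrpl18 was lower without overlap (log2 fold change -0.25, SE 0.10, edgeR adjusted p = 0.374) and Mrpl33 overlapped (0.12, SE 0.16). An unadjusted edgeR p under 0.05 was found for 5 genes of the initiation factor list and 6 of the mitochondrial ribosomal protein genes. It was found for 1 each of the biogenesis, mTOR and S6 kinase genes. The share over all genes was 12.6%.

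Other features of the libraries did not all follow the label. The RNA Malat1, which stays in the nucleus, averaged 16470 ± 4031 CPM in the libraries labelled KO and 8677 ± 2458 CPM in those labelled WT (SD, n = 3 each; log2 fold change 0.92, edgeR adjusted p = 0.293, DESeq2 adjusted p = 0.0169). The groups did not overlap for Malat1, as for Rps4l in the opposite direction. The list of 7 nuclear retained RNAs to which Malat1 belongs went both ways, with 4 positive and 3 negative log2 fold changes, a median of 0.26 and 0 calls by edgeR. The 6 fibroblast markers summed to 425, 302.4 and 288.7 CPM in the libraries labelled KO, against 174.4, 137.9 and 192.9 CPM in those labelled WT. All 6 were positive. edgeR called 1 (Col3a1), against 0.0341% of all genes, and DESeq2 called 3, against 2.65%. An unadjusted edgeR p under 0.05 was found for 4 of the 6, against 12.6% of all genes. The libraries labelled KO were higher without overlap for 4, against 10.9% of all genes. The 6 leukocyte markers summed to 64.34 to 278 CPM in the libraries labelled KO and 51.91 to 2158 CPM in those labelled WT, and the 3 erythroid markers to 464 to 1684 CPM in the libraries labelled KO and 637.4 to 2593 CPM in those labelled WT. The part of Malat1 and of fibroblast RNA in the difference of Rps4l was not tested.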

How the data were processed

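RNA of sorted lung endothelial cells was measured in 6 libraries, 3 labelled KO and 3 labelled WT, grouped by their titles. The authors deposited estimated counts per gene, whole numbers without normalization, and TPM values that the authors computed. The submitters' processing notes name kallisto and the genome build mm10; they give no kallisto version, annotation or way of summing transcripts to genes. TPM columns summed to 875864 to 885609. GENCODE M21 on the same assembly gave symbols and coordinates to 24298 of 24520 identifiers, and identifiers without a symbol held 0.03% to 0.04% of the counts. Rounding the estimated counts changed none of them.

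edgeR 4.0.16 (limma 3.58.1, R 4.3.3) was run with TMM factors, filterByExpr, the quasi-likelihood F test and Benjamini-Hochberg adjustment at 0.05 over 14667 genes, with no covariate. CPM values are scaled by TMM, and fold changes are KO over WT. A standard error is the log2 fold change divided by the square root of F. Groups overlap unless every library of one label lies beyond every library of the other in CPM. Words of 31 bases were counted over the M21 transcripts of each gene. The fit was tested on simulated counts. A count of 3 per library, taken as the floor, is 0.075 to 0.107 CPM, and such floors and the interval hold for counting error alone: reads from amplified cDNA with no molecular identifiers do not count molecules. Every pair of libraries differed beyond sampling noise, with a chi-square of 47.3 to 195 per degree of freedom.

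Named were Dnmt3a, Rps4l, Rps4x, all paralogues, members past a threshold, the 10 lowest p per direction, the 8 highest and 5 lowest levels, genes within 250 kb of Rps4l and the leading members of 14 lists; Tpt1, Larp1, Rpl22, Rps3a1, the copies, Rps6kb1 and others beyond the rule were named after their values were seen. Some genes that the rule names are not reported here. The members and lists were chosen with earlier results of these data known. Alternatives were DESeq2 1.42.0, RLE factors, library size only, TMM without the members, a mean count of at least 50 or no filter, a replicate block, sex read from Y-linked genes, voom with sample weights, limma on log2 TPM with a pseudocount of 1 or 0.1, a mean TPM of at least 1, and the omission of each library. Of the symbols that the rule takes in M21, 4 are not rows of the tables and were not analysed here.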

Additional observations from a re-analysis of the deposited data

How the results depend on the processing

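The number of genes called over all genes was 5 by edgeR, 389 by DESeq2, 0 with the replicate block, 2 with sex as a covariate, 9 on log2(TPM + 0.1), and 1 to 4 when a library was left out. Members called were 0 by edgeR and 1 by DESeq2, which was Rps4l (log2 fold change -1.02, adjusted p = 2.98e-08); under the other settings 0 were called. The median log2 fold change of the members was -0.04. It ran from -0.129 without KO replicate 3 to 0.025 without KO replicate 2, and was 0.031 on the TPM scales. The members' per-library median had an SD of 0.133, pooled over labels, which describes single libraries and not a difference between labels. The summed share of the counts, KO over WT, was -0.029 on the log2 scale, and ran from -0.11 to 0.069 when a library was left out. For TPM it was 0.026, taken over the nominal TPM total and not over the sum of each deposited column.

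Whether the replicate numbers pair the libraries is not known. Deviations of same-numbered libraries correlated at 0.28, -0.05 and -0.17, and only replicate 1 correlated best with its own number. With 3 libraries per label the deviations from a label's mean depend on one another, so these correlations cannot settle it. Y-linked RNA was low in replicate 1 under both labels. With the replicate number as a block, Dnmt3a had a log2 fold change of 2.23 and an adjusted p of 0.0679, and Rps4l had -1.02 and 0.468.

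The 3 libraries per label set the spread behind each call, and reads shared between copies limit Rpl35, Rpl23a and Rpl32l, among others. Counts under 3 per library leave Rpl10l and Rpl3l undetermined.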
